A study of Mus musculus with 139 samples.

Results

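CC chemokines are small secreted proteins that draw leukocytes into tissue, named for a pair of adjacent cysteines. Each binds one or more G-protein-coupled receptors on its target cells, so that a ligand's receptor decides whether monocytes, eosinophils, T cells or other leukocytes follow it. In the lung they are made by macrophages, dendritic cells, epithelium and fibroblasts, and several are known from allergic and particle-induced inflammation. The 10 described here, of 22180 genes with values, are Ccl2, Ccl7, Ccl8, Ccl11, Ccl3, Ccl4, Ccl6, Ccl9, Ccl17 and Ccl22. They were chosen by symbol, with earlier results of these data known, so the counts below describe these genes and do not test the family. Each had a single array feature paired with it alone.

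The values come from whole lung tissue on 139 Affymetrix arrays, an array per mouse but for 1 mouse on 2 arrays, in 18 groups. Male mice of the strain written C57BL/J6 in the labels, bought at 7 weeks of age and housed singly, received a single dose by pharyngeal aspiration under isoflurane, in which a droplet placed at the back of the tongue is breathed in. The dose was 80, 40, 10 or 1 µg of multi-walled carbon nanotubes (MWCNT), 120 µg of crocidolite, an amphibole asbestos, or the dispersion medium (DM) in which both fibres were suspended. DM is a buffered saline with glucose, mouse serum albumin and a surfactant phospholipid, so the exposed mice received it too. Lungs were taken 1, 6 or 12 months later, with 8 mice a group apart from the 1 µg group of 12 months (6 mice) and the crocidolite groups of 1 month (5 mice) and 12 months (7 mice). The series was made to follow expression over rising MWCNT doses, and crocidolite, at a larger mass, is the other fibre to set it against. Mice carry separate numbers in the labels, so replicates are animals, and the 2 arrays of that mouse were averaged.

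Surfactant protein Sftpc, a marker of alveolar type 2 cells, had log2 values between 12.26 and 12.74 over all mice, and Scgb1a1 of airway club cells between 12.25 and 12.81. Other markers spread more, Ager of alveolar type 1 cells from 9.52 to 11.73 and Cldn18 from 7.70 to 10.32. Of 8 lung genes 1 rose with 80 µg at 1 month, and with crocidolite 1 rose and 1 fell at 1 month, 2 fell at 6 months, and 2 rose and 1 fell at 12 months, among them a fall of the endothelial cadherin Cdh5 at each time. Some arrays stood apart. Of the 139 arrays, 5 had a median correlation with the others under 0.96: replicate 4 of crocidolite at 1 month, replicate 6 of 10 µg at 1 month, replicates 4 and 6 of 1 µg at 6 months and replicate 2 of DM at 12 months. Without them the number of CC chemokines called in a comparison differed in a single case, given below. In other arrays the mean log2 value of 8 skeletal muscle genes was high, up to 8.35 in replicate 5 of 80 µg at 12 months and 7.83 in replicate 2 of DM at 1 month, against group medians of 3.52 and 3.86. In 38 titles the word replacement appears without further explanation, and it was left out of the limma model and used only as an alternative covariate or to take subsets of arrays. In bulk lung, more cells of a type and more RNA per cell cannot be told apart.

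All values below are log2 array signals, which can be set against each other for one gene but not between genes. Differences are log2 values of the exposed group minus DM of the same time, with the standard error (SE) of a limma model over all 18 groups. A gene was called when its two-sided adjusted p was under 0.05 over all 22180 genes. The 3 exposures at higher mass raised most of the 10 chemokines at 1 month: 9 were called higher with crocidolite, 8 with 80 µg and 7 with 40 µg, and none lower. Over all genes 2.93% were called higher with crocidolite, 1.69% with 80 µg and 0.555% with 40 µg. At 6 months 7 were called with crocidolite, 8 with 80 µg and 4 with 40 µg, where 1.45%, 0.803% and 0.207% of all genes were called higher. At 12 months 8 were called with crocidolite (4.31% of all genes), but with 80 µg a single one, Ccl22 (0.158% of all genes), and with 40 µg limma called 0 (0.0271% of all genes). Of the 10, 5 were at an unadjusted p under 0.05 with 40 µg at 12 months and 7 with 80 µg.

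With 80 µg the exposed and DM mice did not overlap for 3 of the 10 at 1 month, 0 at 6 months and 1 at 12 months, against 0.775%, 0.0676% and 0.0992% of all genes. With crocidolite it was 4, 1 and 6 of the 10, against 1.23%, 0.392% and 1.43% of all genes. The median difference of the 10 genes was 1.16 with crocidolite, 1.09 with 80 µg and 1.04 with 40 µg at 1 month. At 6 months it was 0.88 with crocidolite, 1.02 with 80 µg and 0.69 with 40 µg, and at 12 months 0.91, 0.53 and 0.45. The median of all genes lay between -0.03 and 0.02 in each comparison with DM. All comparisons at one time share their DM mice, so their differences are not independent of each other.

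At 10 µg and at 1 µg limma called 0 of the 10 at every time, and the other settings of limma that were run did not add any. With 10 µg, 0.018% of all genes were called higher at 1 month, 0.00451% at 6 months and 0 at 12 months, and with 1 µg 0 genes at any time. At an unadjusted p under 0.05, 2 of the 10 were higher with 10 µg at 1 month, 4 at 6 months and 1 at 12 months. With 1 µg it was 0 at 1 month, 0 at 6 months and 1, Ccl4, at 12 months. The largest difference at 10 µg was that of Ccl8 at 6 months, 0.65 ± 0.25 (adjusted p = 0.51).

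**Figure D1:**
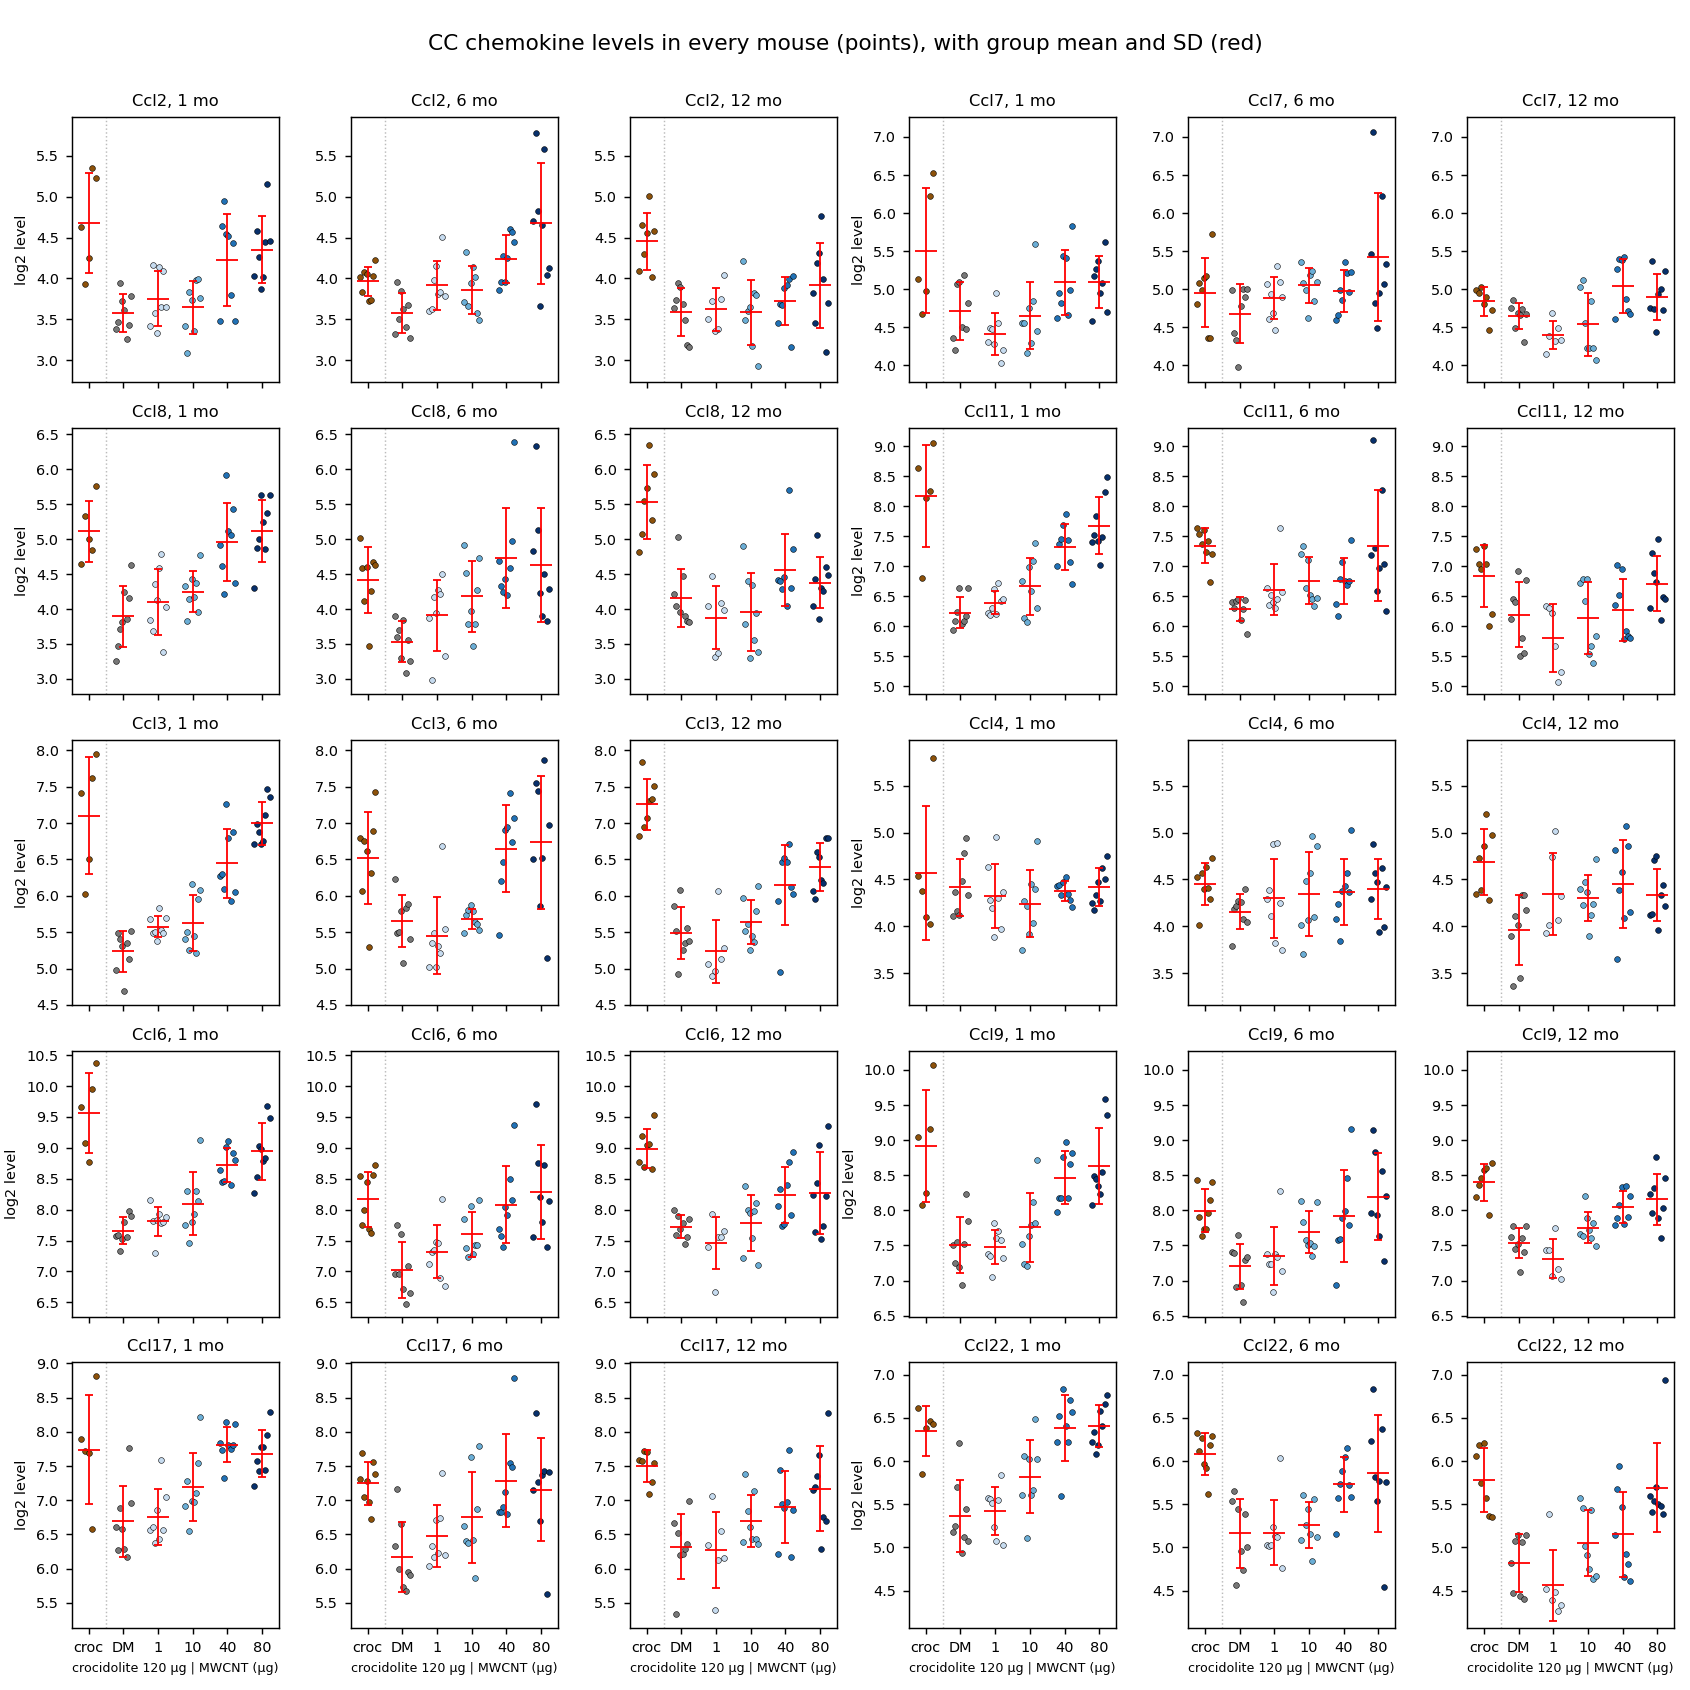
Log2 level of each CC chemokine in every mouse (points), with group mean and SD in red, at 1, 6 and 12 months; crocidolite stands at the left of each panel, then DM and the MWCNT doses in µg from low to high. Ccl3 and Ccl6 climb with dose at 1 month and lie above all DM mice in 8 of 8 mice given 80 µg, while Ccl4 shows a near-level row of means at 1 month.

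Ccl3 and Ccl4, also called MIP-1 alpha and MIP-1 beta, are products of activated macrophages that attract leukocytes, and Ccl3 binds the receptor Ccr1. Ccl6 and Ccl9 are chemokines of rodents that bind Ccr1 and are made by macrophages and other myeloid cells. In the RefSeq gene order of assembly GRCm38.p6, Ccl9, Ccl6, Ccl3 and Ccl4 are consecutive protein-coding genes on chromosome 11. Of the 10 genes, Ccl3, Ccl6, Ccl8, Ccl9, Ccl17 and Ccl22 had an entry in the RefSeq promoter table. The 250 bases before the annotated start of the neighbours Ccl9, Ccl6 and Ccl3, all of which rose at 1 and 6 months with 80 µg and with crocidolite, read 5′ to 3′ on the coding strand:
Ccl9 (chr11:83578637-83578886, minus strand): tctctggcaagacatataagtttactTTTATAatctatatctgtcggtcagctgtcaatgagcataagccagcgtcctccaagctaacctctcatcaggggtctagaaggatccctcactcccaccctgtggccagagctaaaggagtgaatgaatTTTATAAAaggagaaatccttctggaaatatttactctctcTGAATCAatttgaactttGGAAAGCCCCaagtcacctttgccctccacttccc
Ccl6 (chr11:83593088-83593337, minus strand): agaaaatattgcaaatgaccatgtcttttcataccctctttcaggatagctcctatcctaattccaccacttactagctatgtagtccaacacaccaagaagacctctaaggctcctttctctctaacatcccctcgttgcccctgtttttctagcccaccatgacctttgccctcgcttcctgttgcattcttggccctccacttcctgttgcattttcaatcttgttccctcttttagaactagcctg
Ccl3 (chr11:83649379-83649628, minus strand): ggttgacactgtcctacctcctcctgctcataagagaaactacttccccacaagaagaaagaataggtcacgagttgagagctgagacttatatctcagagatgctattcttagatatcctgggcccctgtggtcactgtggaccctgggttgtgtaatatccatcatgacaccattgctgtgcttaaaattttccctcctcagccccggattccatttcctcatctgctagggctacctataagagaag
Capitals mark matches, on either strand, to motifs of transcription factors that act on chemokine genes. Ccl9 held the TATA box TATAAA, in overlapping matches 94 and 92 bases before the start and again 224 bases before it, the AP-1 motif TGANTCA 53 bases before it and an NF-kappaB motif 35 bases before it. Neither Ccl6 nor Ccl3 held any of the motifs searched, which also included the PU.1 motif GAGGAAGT and the STAT6 motif, in this window. Of 32851 mouse promoters of the same length, 12.4% held the TATA box, 6.75% the AP-1 motif, 7.25% the NF-kappaB motif, 2.44% the PU.1 motif and 5.85% the STAT6 motif. Among the 6 members with a promoter 2, 1, 1, 0 and 1 held them in that order. A match is a description of the letters and not a site of binding.

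Ccl3 gave the largest difference of the 10 with 80 µg at 1 month. Its log2 level ran from 6.71 over a median of 6.93 to 7.47 in mice given 80 µg, was 7.42, 6.03, 6.50, 7.62 and 7.95 in the 5 mice given crocidolite, and ran from 4.70 over 5.33 to 5.52 in DM mice. Neither exposed group overlapped DM. The rise was 1.76 ± 0.23 with 80 µg (SE; adjusted p = 7.93e-09) and 1.86 ± 0.27 with crocidolite (adjusted p = 4.45e-08). At 6 months the exposed groups spread widely, from 5.14 over 6.75 to 7.87 with 80 µg and from 5.30 over 6.68 to 7.42 with crocidolite, against 5.08, 5.65 and 6.22 in DM mice. The rises of 1.08 ± 0.23 (adjusted p = 0.00278) and 0.87 ± 0.23 (adjusted p = 0.0159) passed the test, the second of them not without replicate 8 of crocidolite (0.74, adjusted p = 0.0792) or replicate 5 of DM (0.78, adjusted p = 0.0537).

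The 2 fibres, given at unequal mass, parted for Ccl3 at 12 months, in a direct limma contrast close to the threshold. That call was lost with array weights (adjusted p = 0.0562) and with quantile normalization (adjusted p = 0.067), as given below. The Ccl3 level was 5.95 to 6.79 with 80 µg (median 6.38), 6.82 to 7.84 with crocidolite (median 7.30) and 4.93 to 6.08 in DM mice (median 5.45). All 7 crocidolite mice thus lay above the 8 mice given 80 µg and above the 8 DM mice. Crocidolite raised Ccl3 by 1.76 ± 0.24 (adjusted p = 1.2e-08), whereas the difference of 0.90 ± 0.23 with 80 µg missed the threshold (adjusted p = 0.0718). It passed with median centring of the arrays (0.94, adjusted p = 0.0419), with array weights, without dim genes, with the compared groups alone in the fit and without replicate 2 of 80 µg (0.96, adjusted p = 0.0425). With 40 µg Ccl3 rose by 1.21 ± 0.23 at 1 month and 1.00 ± 0.23 at 6 months.

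Ccl4, the next gene along, was called with neither fibre at 1 month. It ran from 4.17 over 4.40 to 4.75 with 80 µg, was 4.54, 4.38, 4.10, 4.02 and 5.79 with crocidolite, and ran from 4.11 over 4.35 to 4.94 in DM mice. Of the crocidolite mice 1 lay above every DM mouse and 2 below, no mouse given 80 µg lay outside the DM range, and the differences were 0.00 ± 0.17 with 80 µg (adjusted p = 0.998) and 0.15 ± 0.20 with crocidolite (adjusted p = 0.793). Replicate 5 of crocidolite was high in Ccl4 and had the highest level of its group for Ccl3, Ccl6, Ccl7, Ccl8, Ccl9, Ccl11 and Ccl17. Of the 15 comparisons with DM Ccl4 was called in one, crocidolite at 12 months, with a rise of 0.72 ± 0.18 (adjusted p = 0.00396). There it ran from 4.29 over 4.73 to 5.20 with crocidolite, against 3.36, 4.07 and 4.34 in DM mice, with 6 of 7 crocidolite mice above every DM mouse. The DM group at 12 months had the lowest Ccl4 of all 18 groups (3.96 ± 0.37, SD, n = 8), and DM at 12 minus 1 month was -0.45 ± 0.17 (adjusted p = 0.228).

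Because Ccl3 and Ccl4 lie side by side, their log2 difference was also taken in each mouse, a pair chosen after its values were seen. Ccl3 minus Ccl4 was 2.58 ± 0.22 with 80 µg and 0.82 ± 0.44 with DM at 1 month (SD, n = 8 each), a shift of 1.76 (adjusted p = 0.000932, exact two-sided permutation test, Benjamini-Hochberg over 6 comparisons). With crocidolite the shift was 1.71 at 1 month (adjusted p = 0.00311, exact permutation test) and 1.04 at 12 months (adjusted p = 0.00186, exact permutation test). The shift with 80 µg was 0.84 at 6 months and 0.52 at 12 months (adjusted p = 0.0301 and 0.0352, exact permutation tests). With crocidolite at 6 months it was 0.57 (adjusted p = 0.0573, exact permutation test). The tests describe a pair already seen to differ.

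Ccl6 had its highest group mean of the 18 with crocidolite at 1 month and its lowest with DM at 6 months. At 1 month it ran from 8.27 over 8.91 to 9.68 with 80 µg, was 9.66, 9.08, 8.76, 9.95 and 10.37 with crocidolite, and ran from 7.34 over 7.58 to 7.98 in DM mice. No exposed mouse overlapped DM, and Ccl6 rose by 1.29 ± 0.23 with 80 µg (adjusted p = 2.98e-05) and 1.91 ± 0.26 with crocidolite (adjusted p = 1.09e-08). At 6 months 6 of 8 mice lay above every DM mouse in each of the exposed groups, and the rises were 1.26 ± 0.23 (adjusted p = 0.000168) and 1.14 ± 0.23 (adjusted p = 0.000445). By 12 months levels with 80 µg ran from 7.53 over 8.22 to 9.35 and with crocidolite from 8.66 over 9.04 to 9.53, against 7.45, 7.74 and 8.0 in DM mice. Crocidolite mice stayed clear of DM with a rise of 1.26 ± 0.24 (adjusted p = 4.99e-05), and the 80 µg difference of 0.54 ± 0.23 was not called (adjusted p = 0.368). With 40 µg Ccl6 rose by 1.06 ± 0.23 at both 1 and 6 months.

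Ccl9 rose with 80 µg and with crocidolite at 1 and 6 months, as its neighbour Ccl6 did. At 1 month its level ran from 8.07 over 8.47 to 9.59 with 80 µg, was 9.04, 8.07, 8.24, 9.16 and 10.07 with crocidolite, and ran from 6.94 over 7.51 to 8.24 in DM mice. A single DM mouse, at 8.24, reached into the exposed range. The rises were 1.13 ± 0.20 with 80 µg (adjusted p = 4.88e-05) and 1.41 ± 0.23 with crocidolite (adjusted p = 2.71e-06) at 1 month, and 0.99 ± 0.20 (adjusted p = 0.0013) and 0.79 ± 0.20 (adjusted p = 0.011) at 6 months. At 12 months crocidolite mice, from 7.93 over 8.45 to 8.68, did not overlap DM mice, from 7.12 over 7.56 to 7.78 (0.86 ± 0.21, adjusted p = 0.00321). Mice given 80 µg ran from 7.60 over 8.13 to 8.76, with 7 of 8 above every DM mouse, but the difference of 0.62 ± 0.20 was not called (adjusted p = 0.195). With 40 µg Ccl9 rose by 0.96 ± 0.20 at 1 month, and at 12 months all 8 mice lay above DM with an uncalled difference of 0.51 ± 0.20 (adjusted p = 0.289).

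**Figure D2:**
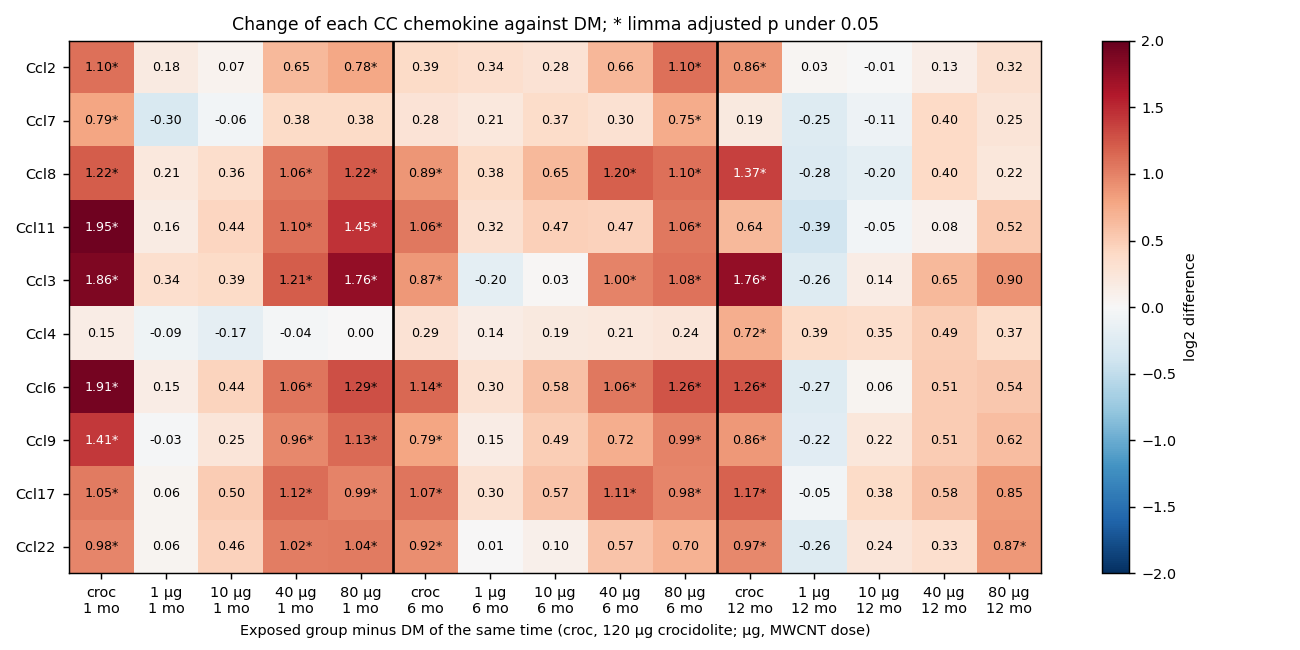
Log2 difference of each CC chemokine (rows) from DM of the same time in the 15 exposed groups (columns; croc is 120 µg crocidolite), with an asterisk where limma's adjusted p is under 0.05. Red fills most of the crocidolite, 40 and 80 µg columns at 1 month, while the row of Ccl4 holds an asterisk for crocidolite at 12 months alone.

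Ccl17 and Ccl22 bind Ccr4, a receptor of type 2 helper and regulatory T cells, and are typically made by dendritic cells and alternatively activated macrophages. In the RefSeq order they lie on chromosome 8 with Cx3cl1, a chemokine of another class, as the only protein-coding gene between them. The 250 bases before each start are shown because the pair shares a receptor, both genes rose with 40 µg, 80 µg and crocidolite at 1 month, and STAT6, which acts downstream of interleukin 4, is known to drive Ccl17:
Ccl22 (chr8:94745434-94745683, plus strand): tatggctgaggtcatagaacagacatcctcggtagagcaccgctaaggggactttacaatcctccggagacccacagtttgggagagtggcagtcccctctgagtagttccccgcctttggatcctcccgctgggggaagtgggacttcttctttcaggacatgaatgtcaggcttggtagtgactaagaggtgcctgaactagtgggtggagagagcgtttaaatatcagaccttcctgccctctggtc
Ccl17 (chr8:94810203-94810452, plus strand): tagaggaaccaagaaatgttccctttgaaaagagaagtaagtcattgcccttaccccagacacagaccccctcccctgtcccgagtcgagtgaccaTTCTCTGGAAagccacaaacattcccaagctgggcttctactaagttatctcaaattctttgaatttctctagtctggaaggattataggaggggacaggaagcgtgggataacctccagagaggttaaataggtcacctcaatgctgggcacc
Capitals mark a match to the STAT6 motif in Ccl17. The Ccl22 window held none of the motifs named above, which says no more than that these letters are not in this window.

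The differences of Ccl17 and Ccl22 from DM lay between 0.70 and 1.17 with both fibres at the 3 times. For Ccl22 at 1 month levels ran from 6.08 over 6.37 to 6.77 with 80 µg, were 6.62, 5.85, 6.38, 6.46 and 6.43 with crocidolite, and ran from 4.94 over 5.21 to 6.21 in DM mice. A single DM mouse lay above the lowest crocidolite and 80 µg mice. Ccl22 rose by 1.04 ± 0.20 with 80 µg (adjusted p = 0.000103), 0.98 ± 0.22 with crocidolite (adjusted p = 0.00124) and 1.02 ± 0.20 with 40 µg (adjusted p = 0.000489). At 6 months it rose by 0.92 ± 0.20 with crocidolite (adjusted p = 0.0011), while with 80 µg the difference of 0.70 ± 0.20 fell just short (adjusted p = 0.0523). That 80 µg group ran from 4.54 to 6.83, and without its lowest mouse, replicate 7, the difference was 0.88 and was called (adjusted p = 0.00197).

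Ccl22 was the one chemokine of the 10 called with 80 µg at 12 months. Its level there ran from 5.38 over 5.52 to 6.94, against 4.40, 4.94 and 5.14 in DM mice, and no values overlapped. The rise was 0.87 ± 0.20 (adjusted p = 0.0189). Replicate 8, at 6.94, stood above the rest of the group, and without it the difference was 0.69 and missed the threshold (adjusted p = 0.179). Without replicate 5 or replicate 7 of DM it also missed the threshold narrowly (0.82, adjusted p = 0.052, and 0.81, adjusted p = 0.0532), and with the compared groups alone in the fit the adjusted p was 0.163. With crocidolite at 12 months Ccl22 ran from 5.35 over 5.74 to 6.21, above all DM mice, and rose by 0.97 ± 0.20 (adjusted p = 0.000377).

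Ccl17 at 1 month ran from 7.21 over 7.67 to 8.29 with 80 µg, was 7.90, 7.71, 7.69, 6.58 and 8.82 with crocidolite, and ran from 6.18 over 6.59 to 7.77 in DM mice. The groups overlapped, through 1 DM mouse at 7.77 and 1 crocidolite mouse at 6.58. The rise was 0.99 ± 0.25 with 80 µg (adjusted p = 0.0135) and 1.05 ± 0.29 with crocidolite (adjusted p = 0.0126). Each call could be lost with a single mouse, without replicate 8 of 80 µg (0.90, adjusted p = 0.0537) and without replicate 5 of crocidolite (0.78, adjusted p = 0.184). At 6 months Ccl17 rose by 0.98 ± 0.25 with 80 µg (adjusted p = 0.0261) and 1.07 ± 0.25 with crocidolite (adjusted p = 0.00431), and in each group 5 of 8 mice exceeded the highest DM mouse. The 80 µg call was lost without any one of replicates 2, 3, 6 or 8 of 80 µg or replicates 3, 5, 6, 7 or 8 of DM, with the smallest difference of 0.82 without replicate 2 (adjusted p = 0.213).

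At 12 months Ccl17 with crocidolite ran from 7.09 over 7.58 to 7.71, clear of DM mice at 5.33, 6.33 and 6.99, and rose by 1.17 ± 0.26 (adjusted p = 0.001). With 80 µg it ran from 6.29 over 7.17 to 8.27, and the difference of 0.85 ± 0.25 was not called (adjusted p = 0.144). Its highest group mean was that of 40 µg at 1 month, where it rose by 1.12 ± 0.25 (adjusted p = 0.00658), and with 40 µg at 6 months it rose by 1.11 ± 0.25 (adjusted p = 0.0184).

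Ccl2, also known as MCP-1, and Ccl7 are ligands of Ccr2, the receptor through which monocytes leave the bone marrow and enter tissue. Ccl11, or eotaxin, binds Ccr3 on eosinophils, and Ccl8 is in the mouse a ligand of Ccr8, found on type 2 T cells. In the RefSeq order Ccl2, Ccl7, Ccl11, Ccl12 and Ccl8 follow each other on chromosome 11. Ccl2 was the dimmest of the 10 features as a mean over all mice, and the only one with a mean under 4 on the log2 scale (3.95).

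Ccl11 rose most with crocidolite at 1 month, where its level was 8.63, 6.80, 8.14, 8.25 and 9.05. With 80 µg it ran from 7.02 over 7.51 to 8.48, and in DM mice from 5.94 over 6.13 to 6.64. Neither exposed group overlapped DM, and the rise was 1.45 ± 0.24 with 80 µg (adjusted p = 9.19e-06) and 1.95 ± 0.28 with crocidolite (adjusted p = 4.45e-08). With 40 µg all 8 mice also lay above DM (difference 1.10 ± 0.24, adjusted p = 0.00522). At 6 months the crocidolite mice, from 6.74 over 7.39 to 7.64, stayed clear of the DM mice, from 5.88 over 6.35 to 6.45, with a rise of 1.06 ± 0.24 (adjusted p = 0.00311). The same size of rise with 80 µg (1.06 ± 0.24, adjusted p = 0.00728) came with a wide spread, from 6.26 over 7.11 to 9.10, and was lost without replicate 2 (0.80, adjusted p = 0.149) or replicate 6 (0.92, adjusted p = 0.0559).

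By 12 months Ccl11 was called with neither fibre. It ran from 6.11 over 6.62 to 7.46 with 80 µg, from 6.00 over 7.03 to 7.33 with crocidolite and from 5.51 over 6.26 to 6.93 in DM mice. The groups overlapped, and the differences were 0.52 ± 0.24 (adjusted p = 0.433) and 0.64 ± 0.25 (adjusted p = 0.119). The crocidolite difference passed with array weights alone (0.83, adjusted p = 0.0132).

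Ccl8 at 1 month ran from 4.31 over 5.12 to 5.63 with 80 µg, was 4.64, 5.32, 5.00, 4.84 and 5.76 with crocidolite, and ran from 3.26 over 3.84 to 4.64 in DM mice. The rise was 1.22 ± 0.25 with 80 µg (adjusted p = 0.000515) and 1.22 ± 0.28 with crocidolite (adjusted p = 0.00185). Above the highest DM mouse lay 7 of 8 mice given 80 µg and 5 of 5 given crocidolite. With 40 µg it rose by 1.06 ± 0.25 at 1 month and by 1.20 ± 0.25 at 6 months, where all 8 mice lay above DM. At 6 months Ccl8 rose by 1.10 ± 0.25 with 80 µg (adjusted p = 0.00583) and 0.89 ± 0.25 with crocidolite (adjusted p = 0.0221). The 80 µg call was lost without replicate 2 (0.85, adjusted p = 0.127), and the crocidolite call without replicate 1, replicate 8 or replicate 6 of DM (0.80 to 0.86, with adjusted p of 0.0615, 0.0525 and 0.0512).

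At 12 months the fibres differed in Ccl8. Its level ran from 3.86 over 4.36 to 5.05 with 80 µg and from 4.81 over 5.55 to 6.34 with crocidolite, against 3.82, 4.0 and 5.03 in DM mice. Mice given 80 µg lay within or just beyond the DM range, and 6 of 7 crocidolite mice lay above every DM mouse. Crocidolite raised Ccl8 by 1.37 ± 0.26 (adjusted p = 5.36e-05), while the difference with 80 µg was 0.22 ± 0.25 (adjusted p = 0.797).

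Ccl2 at 1 month ran from 3.87 over 4.36 to 5.16 with 80 µg, was 4.63, 3.93, 4.25, 5.35 and 5.23 with crocidolite, and ran from 3.26 over 3.54 to 3.95 in DM mice. Of the exposed mice, 7 of 8 and 4 of 5 lay above every DM mouse. The rise was 0.78 ± 0.19 with 80 µg (adjusted p = 0.00928), lost without replicate 7 (0.66, adjusted p = 0.0599), and 1.10 ± 0.22 with crocidolite (adjusted p = 0.000163). At 6 months it rose with 80 µg (1.10 ± 0.19, adjusted p = 9.97e-05), where levels ran from 3.67 over 4.68 to 5.78, against 3.28, 3.56 and 3.96 in DM mice. The difference with crocidolite at 6 months was 0.39 ± 0.19 (adjusted p = 0.324). At 12 months Ccl2 had a rise of 0.86 ± 0.20 with crocidolite (adjusted p = 0.00164), no overlap of its 4.02 to 5.01 with the 3.16 to 3.94 of DM mice, and an uncalled 0.32 ± 0.19 with 80 µg (adjusted p = 0.555).

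Ccl7 was called in 2 comparisons, and single mice decided both. With crocidolite at 1 month its level was 5.13, 4.67, 4.98, 6.23 and 6.52, against 4.20, 4.66 and 5.18 as the lowest, median and highest of DM mice. The 2 high mice, replicates 4 and 5, set the rise of 0.79 ± 0.23 (adjusted p = 0.0184), which was 0.61 without replicate 4 (adjusted p = 0.185) and 0.54 without replicate 5 (adjusted p = 0.278). Replicate 4 is the array of lowest correlation named above, and Ccl7 is the gene whose call was lost when such arrays were left out. With 80 µg at 6 months Ccl7 ran from 4.48 over 5.20 to 7.06, against 3.98, 4.84 and 5.01 in DM mice, and rose by 0.75 ± 0.20 (adjusted p = 0.0375). Without replicate 2, the highest mouse, the difference was 0.51 (adjusted p = 0.49). The call was also lost without replicate 1 or 6 of 80 µg, without replicate 2, 3, 4 or 5 of DM, and with quantile normalization (0.73, adjusted p = 0.0523).

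The mouse labelled replicate 2 of 80 µg at 6 months thus decided calls of Ccl7, Ccl8, Ccl11 and Ccl17. Without it 4 of the 10 were called at 6 months with 80 µg (0.338% of all genes in either direction), and without replicate 6 it was 5 (0.518%), against 8 with all mice (0.933%). With the compared groups alone in the fit limma called 0 of the 10 there (0.108% of all genes), 9 being at an unadjusted p under 0.05 in the model over all groups. The mean log2 value of 9 macrophage genes in that group ran from 6.68 over 7.07 to 7.92, and replicate 2 was the highest. Its part in the result was not tested.

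Over the 5 dose groups from DM to 80 µg, 9 of the 10 had a rising dose trend at 1 month, 8 at 6 months and 5 at 12 months, where 2.56%, 1.18% and 0.591% of all genes were called rising. The trend is the slope of group means on the log2 of the dose in µg plus 1, so 1 unit stands for roughly a doubling of dose. At 1 month it was steepest for Ccl3 at 0.25 ± 0.03 per unit (adjusted p = 1.69e-10) and Ccl11 at 0.22 ± 0.03 (adjusted p = 4.71e-08), and Ccl4 had 0.00 ± 0.02 (adjusted p = 0.988). At 6 months Ccl3 had 0.20 ± 0.03 and Ccl6 0.19 ± 0.03, and the genes not called were Ccl4 and Ccl7 (0.09 ± 0.03, adjusted p = 0.0684). At 12 months the called genes were Ccl3 (0.16 ± 0.03, adjusted p = 0.00115), Ccl22 (0.14 ± 0.03, adjusted p = 0.000937), Ccl9 (0.12 ± 0.03, adjusted p = 0.00834), Ccl17 (0.14 ± 0.03, adjusted p = 0.0191) and Ccl6 (0.11 ± 0.03, adjusted p = 0.036). Ccl2, Ccl7, Ccl8 and Ccl11 had slopes of 0.04 to 0.09 there and were not called.

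Set directly against crocidolite, 80 µg MWCNT gave 0 called genes of the 10 at 1 month and 0 at 6 months by limma (0.0902% and 0.0271% of all genes called in either direction). At an unadjusted p under 0.05 there was 1 at 1 month, Ccl6 (-0.62 ± 0.26, adjusted p = 0.392), and 2 at 6 months, Ccl2 (0.71 ± 0.19, adjusted p = 0.384) and Ccl7 (0.47 ± 0.20, adjusted p = 0.961). At 12 months 2 were called lower with 80 µg than with crocidolite, where 0.83% of all genes were called lower. Of the 10, 4 were at an unadjusted p under 0.05 there, these 2 among them, and 1 had a positive difference. Ccl8 was lower by 1.15 on the log2 scale (-1.15 ± 0.26, adjusted p = 0.00638), and 7 of 8 mice given 80 µg lay below every crocidolite mouse. Ccl3 differed by -0.87 ± 0.24 (adjusted p = 0.0486), with all 8 below every crocidolite mouse, and missed the threshold with array weights (-0.87, adjusted p = 0.0562) and with quantile normalization (-0.82, adjusted p = 0.067). Among arrays with the word replacement, and among those without it, 0 of the 10 were called in this contrast.

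**Figure D3:**
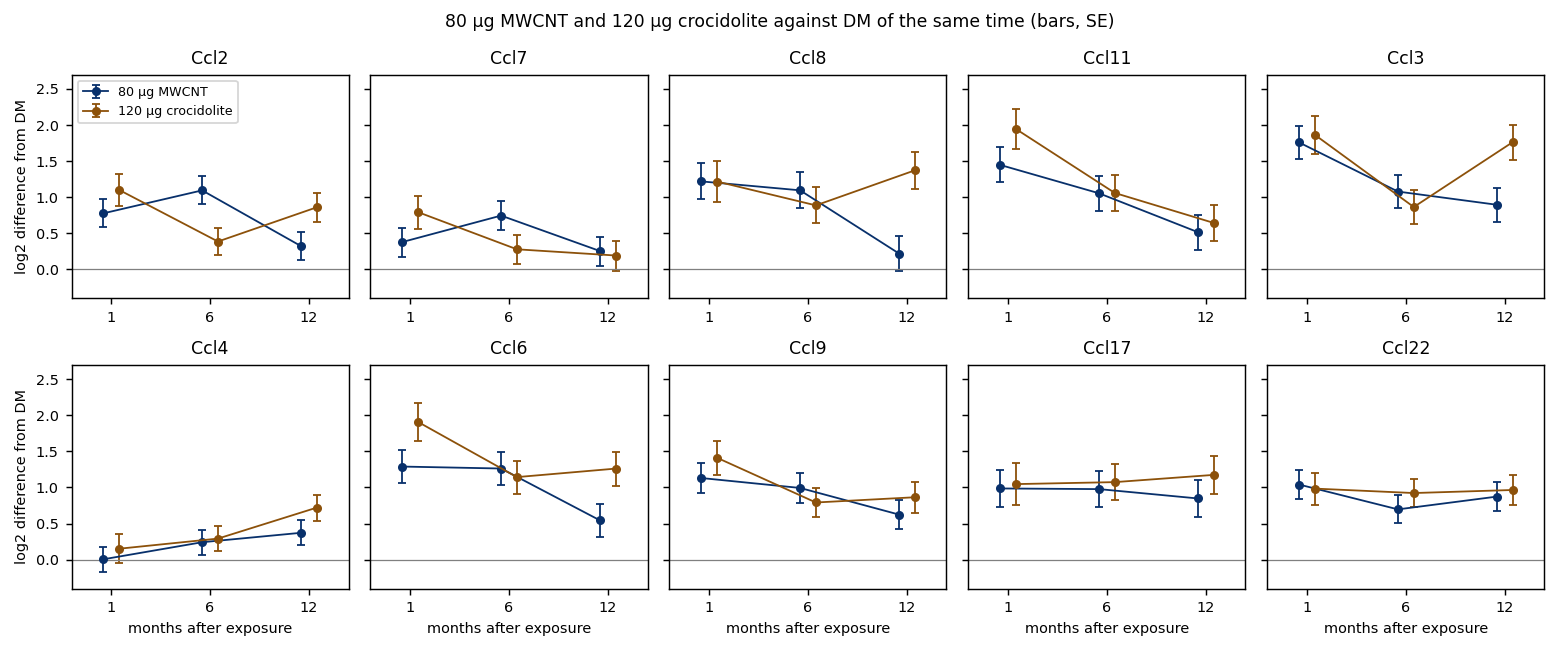
Log2 difference from DM with SE for 80 µg MWCNT (blue) and 120 µg crocidolite (brown) at 1, 6 and 12 months, a panel for each CC chemokine. The points lie close at 1 and 6 months for most genes. At 12 months Ccl3 and Ccl8, the 2 called in the direct contrast, stand higher with crocidolite, by 0.87 and 1.15. Of the 10 genes 1 stands higher with 80 µg there.

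The change of an effect over the year was tested as an interaction. For 80 µg, 0 of the 10 were called by limma at 12 against 1 month (0.00902% of all genes called in either direction), and 4 were at an unadjusted p under 0.05, all smaller at 12 months: Ccl8 (-1.0 ± 0.35), Ccl11 (-0.93 ± 0.34), Ccl3 (-0.86 ± 0.33) and Ccl6 (-0.75 ± 0.32), with adjusted p between 0.478 and 0.573. For crocidolite 0 were called (0.0541% of all genes), and 2 were at an unadjusted p under 0.05, Ccl11 (-1.30 ± 0.37, adjusted p = 0.236) and Ccl4 (0.57 ± 0.27, adjusted p = 0.714). So the fall in called genes with 80 µg, 8 at 1 month and 1 at 12 months, is a difference between counts, and no single gene was called in the test of that change. In DM mice alone 0 of the 10 were called at 6 against 1 month (0.135% of all genes in either direction) or at 12 against 1 month (1.12%), with 2 each at an unadjusted p under 0.05, Ccl6 and Ccl17 at 6 months and Ccl4 and Ccl22 at 12 months.

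By order of group means, the highest of the 18 groups was that of crocidolite at 1 month for Ccl2, Ccl6, Ccl7, Ccl9 and Ccl11, that of crocidolite at 12 months for Ccl3, Ccl4 and Ccl8, 40 µg at 1 month for Ccl17 and 80 µg at 1 month for Ccl22. The lowest group was a DM group for Ccl2, Ccl4, Ccl6, Ccl8, Ccl9 and Ccl17 and 1 µg at 12 months for Ccl3, Ccl7, Ccl11 and Ccl22. Ccl6 spanned the widest range of means, 2.55 log2 units, and Ccl4 the narrowest, 0.72. For each gene, 0 of the 17 pairs of neighbouring groups in this order differed by more than the larger of their SDs.

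Over all mice of the 139 arrays the levels of 45 pairs of the 10 genes correlated with Pearson's r between 0.18 and 0.87, as a description of arrays that share groups and technical variation. The highest was Ccl6 with Ccl9, at 0.87 over all mice and 0.73 after group means were taken off. The 9 pairs with Ccl4 lay between 0.18 and 0.43 and the other 36 between 0.37 and 0.87. After group means were taken off, the ranges were 0.03 to 0.40 and 0.19 to 0.73. Neighbourhood on chromosome 11 did not go with a high r in each case, since Ccl3 with Ccl4 had 0.40.

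**Figure D4:**
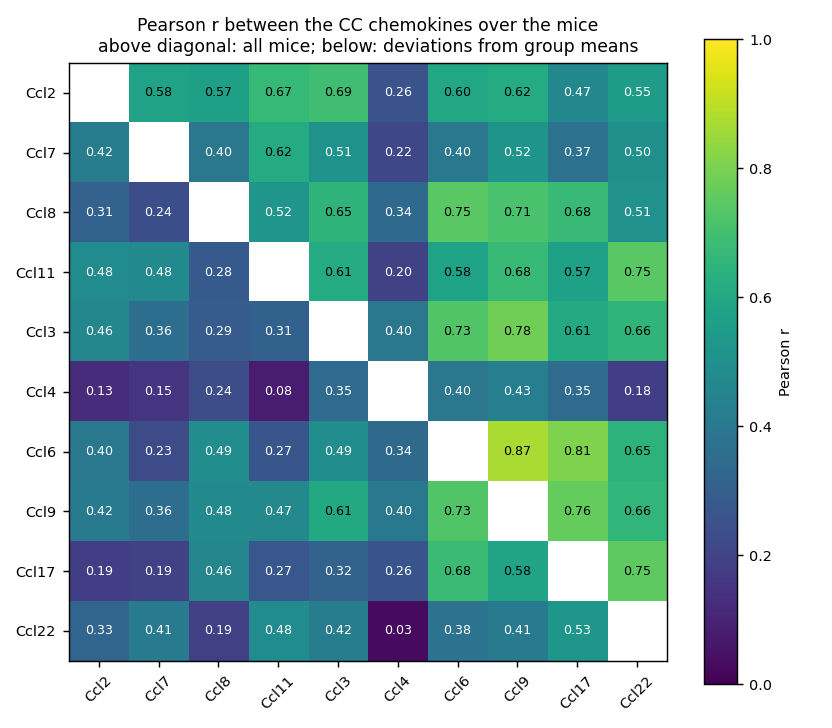
Pearson r between the levels of each pair of CC chemokines over all mice of the 139 arrays, above the diagonal for all mice and below it for deviations from group means. The brightest square is Ccl6 with Ccl9 (0.87), and the row and column of Ccl4 are the darkest.

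Each chemokine was also set against the 18177 named genes, to list the 3 whose level ran most like its own over all mice. These r values include differences between groups. After group means were taken off, r was lower in every pair listed, between 0.41 (Ccl4 with Wfdc17) and 0.78 (Ccl6 with Atp6v0d2). For Ccl22 with Igf1 it was 0.54 and for Ccl8 with Cd14 0.50. Over all mice, Ccl3 ran most like Mmp12, the macrophage elastase (r = 0.88), Gpnmb, a glycoprotein of lysosome-rich macrophages (0.88), and Ctsk, a collagen-degrading cathepsin (0.87). Ccl6 ran with Atp6v0d2, a subunit of a vacuolar proton pump (0.90), Cd14, a co-receptor for bacterial lipopolysaccharide (0.90), and Clec7a, the beta-glucan receptor (0.88). For Ccl9 they were Ccl6 (0.87), the leukocyte integrin chain Itgb2 (0.85) and Ctsk (0.84), and for Ccl17 Ccl6 (0.81), the lectin receptor Clec4n (0.80) and Cd14 (0.80). Ccl8 was nearest to Cd14 (0.76), Wfdc17 (0.75) and Ccl6 (0.75).

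Ccl11 ran with Igf1, insulin-like growth factor 1 (0.84), the metalloproteinase Mmp19 (0.79) and the lipid receptor Trem2 (0.76), and Ccl22 with Chil1, a chitinase-like protein (0.85), Lcn2, an iron-carrier-binding protein (0.84), and Igf1 (0.82). The likeness was weaker for Ccl2, led by the neuropeptide Npy (0.71), serum amyloid Saa3 (0.71) and Trem2 (0.71), and for Ccl7, led by Ccl11 (0.62), Zranb3 (0.59) and Ccl2 (0.58). Ccl4 had no close companion, its highest being the myeloid adaptor Tyrobp (0.48), Wfdc17 (0.48) and Cd302 (0.47). As strengths of signal and not as amounts, the mean log2 value over all mice was 4.35 for Ccl4 and 4.39 for Ccl8, whose highest r was 0.76. The part of signal strength was not tested.

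Of 14 other CC chemokines 9 had a feature of their own, while Ccl19, Ccl21a, Ccl21b, Ccl21c and Ccl27b are not analysed here. The split from the chemokines described above was made with earlier results of these data known, so the contrast is a description and not a test. With 80 µg limma called 0 of 9 at each time, with 0, 1 and 2 at an unadjusted p under 0.05 at 1, 6 and 12 months, and with 40 µg 0 of 9, with 2, 1 and 1. Their median difference with 80 µg was -0.05 at 1 month, 0.09 at 6 months and 0.02 at 12 months. With crocidolite at 1 month Ccl5, a chemokine made by T cells, fell by 0.73 (SE 0.19, adjusted p = 0.00678), and Ccl27a, a ligand of Ccr10, fell by 0.57 (SE 0.15, adjusted p = 0.0102). At 12 months Ccl27a fell by 0.43 (SE 0.14, adjusted p = 0.0402), and Ccl28, a ligand of Ccr10 and Ccr3 at mucosal surfaces, rose by 0.56 ± 0.18 (adjusted p = 0.038). At 6 months with crocidolite 0 of 9 were called and 2 were at an unadjusted p under 0.05.

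Values of 13 receptors and scavenging receptors for CC chemokines were read in the same way. With 80 µg and with 40 µg limma called 0 of 13 at each time, against 3, 3 and 1 at an unadjusted p under 0.05 with 80 µg and 3, 1 and 2 with 40 µg at 1, 6 and 12 months. With crocidolite at 1 month Ccr8, which binds Ccl8 in the mouse, rose by 0.92 ± 0.29 (adjusted p = 0.0359), and Ackr2, a scavenger that removes inflammatory CC chemokines, fell by 0.48 (SE 0.15, adjusted p = 0.0383). Ackr2 also fell by 0.48 at 6 months (SE 0.13, adjusted p = 0.0174). At 12 months 0 of 13 were called with crocidolite and 3 were at an unadjusted p under 0.05. Along the MWCNT dose at 1 month Ackr4 and Ccrl2, a scavenging receptor and a chemerin-binding relative, fell by 0.06 log2 units per unit of dose (adjusted p = 0.0451 and 0.00824).

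**Figure D5:**
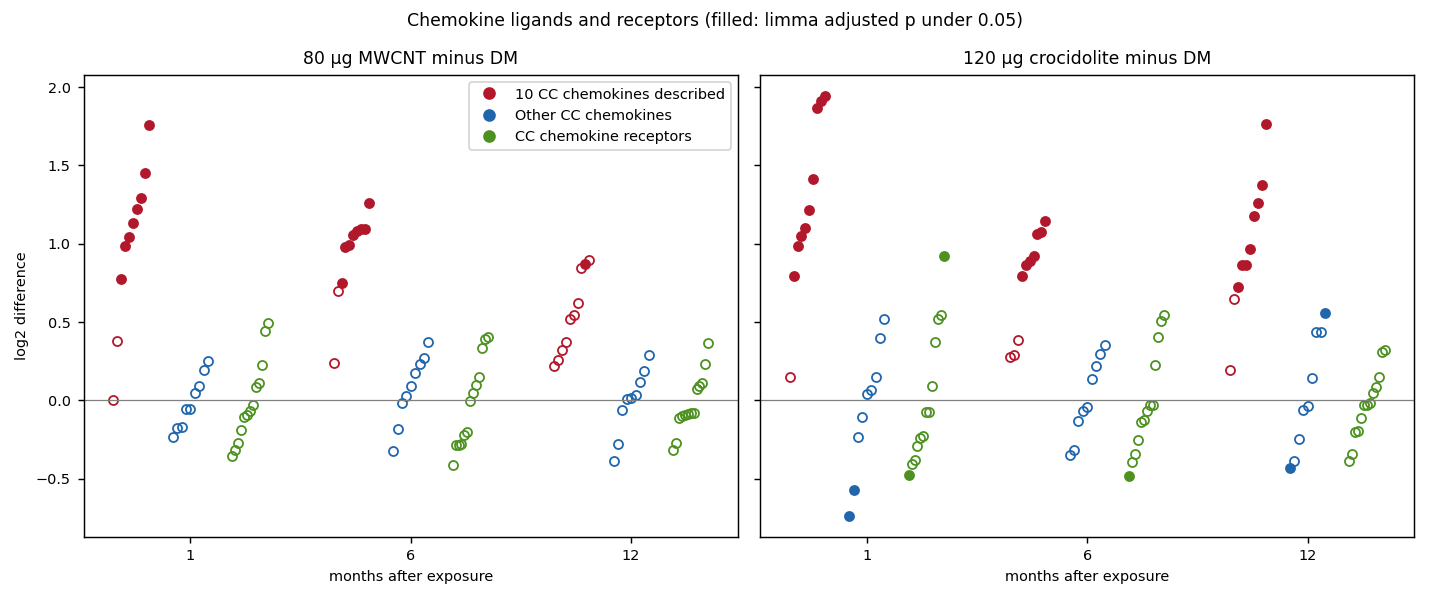
Log2 difference from DM for 80 µg MWCNT (left) and 120 µg crocidolite (right) at 1, 6 and 12 months, a point per gene, for the 10 CC chemokines described, 9 other CC chemokines and 13 receptors, filled where limma's adjusted p is under 0.05. At 1 month the 10 have medians of 1.09 (80 µg) and 1.16 (crocidolite), the other CC chemokines -0.05 and 0.04, and Ccr8 (0.92) is the filled receptor that rose. The sets were chosen with earlier results of these data known, so their contrast is a description.

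Markers of cells that make or follow these chemokines were read in the same comparisons. Of 9 measured macrophage genes, 5 rose at 1 month, 3 at 6 months and 1 at 12 months with 80 µg, and 5, 2 and 6 with crocidolite. Cd68, a lysosomal protein of macrophages, rose by 1.26 ± 0.20 with 80 µg and 1.57 ± 0.23 with crocidolite at 1 month, and by 0.89 ± 0.20 and 1.59 ± 0.21 at 12 months. The mean log2 value of the 9 genes at 1 month ran from 7.15 over 7.61 to 7.90 with 80 µg and from 7.28 over 7.66 to 8.03 with crocidolite, against 6.74, 6.85 and 7.14 with DM. At 12 months it ran from 6.59 over 7.09 to 7.59 with 80 µg and from 7.23 over 7.49 to 7.81 with crocidolite, against 6.44, 6.79 and 7.00 with DM. The medians of this mean lay above DM with both fibres at both times, as the median difference of the 10 chemokines did. The 2 sets were not related to each other mouse by mouse, and the part of the macrophage genes in the chemokine results was not tested.

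Of 6 measured eosinophil genes Ear6, an eosinophil ribonuclease, rose at 1 month with 80 µg (0.89 ± 0.17) and with crocidolite (0.67 ± 0.19), and Prg2, the major basic protein, at 12 months with crocidolite (0.97 ± 0.20), with the rest not called. The median of the eosinophil list was below 0 at 1 month, at -0.19 with 80 µg and -0.10 with crocidolite, and 0.28 with crocidolite at 12 months. Of 7 dendritic cell genes 2, 0 and 0 rose with 80 µg at 1, 6 and 12 months and 1, 1 and 1 with crocidolite. They included Itgae, an integrin of one class of dendritic cells and of T cells in epithelium, at 0.77 ± 0.16 with 80 µg and 0.94 ± 0.18 with crocidolite at 1 month. The medians of the dendritic cell list there were -0.05 and 0.19. Of 4 monocyte genes limma called 0 in each of these 6 comparisons, with at most 1 at an unadjusted p under 0.05.

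Of 7 T cell genes 2 rose at 1 month with each fibre, Foxp3, the transcription factor of regulatory T cells (0.95 ± 0.16 with 80 µg and 1.19 ± 0.19 with crocidolite), and the costimulator Icos, and Cd8a of cytotoxic T cells fell by 0.69 with crocidolite (SE 0.20). The median of the T cell list was below 0 there, at -0.13 with 80 µg and -0.31 with crocidolite. At 6 months Foxp3 rose with crocidolite and no T cell gene was called with 80 µg. At 12 months Foxp3 rose and Cd8a fell with crocidolite, and Cd3d, a chain of the T cell receptor complex, fell with 80 µg (list medians -0.23 and -0.34). Cd177, a surface protein of neutrophils, was the one of 8 neutrophil genes called, rising by 1.12 to 2.58 in all 6 comparisons, while the list median lay between -0.32 and 0.06.

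Markers of muscle, lymphoid tissue, fat and squamous epithelium, which may lie in or beside the lung, were read too. Of 7 heart muscle genes 6 fell with crocidolite at 12 months (median -1.36), where 2.16% of all genes were called lower, and 1 at 1 month (median -0.96), where it was 2.83%. The mean log2 value of the heart muscle genes at 12 months ran from 6.24 over 7.30 to 7.50 with crocidolite, against 7.53, 8.49 and 9.12 with DM. Of 6 genes of lymphoid tissue 3 fell with crocidolite at 1 month (median -0.66). With crocidolite at 6 months 5 of them were at an unadjusted p under 0.05 and not called (median -0.51). With 80 µg at 12 months it was also 5 (median -0.47). Of 5 fat genes 1 fell with crocidolite at 1 month, and at 12 months 4 were at an unadjusted p under 0.05 with crocidolite and not called (median -0.99). Of 7 genes of squamous epithelium 1 rose with crocidolite at 12 months, and with 80 µg at 12 months 5 were at an unadjusted p under 0.05 and not called (median 1.70), their mean running from 3.13 over 3.43 to 7.53 with 80 µg, against 2.84, 3.09 and 3.55 with DM. Of 8 skeletal muscle genes limma called 0 in these comparisons, although 6 were at an unadjusted p under 0.05 with crocidolite at 1 month (median -1.43) and at most 2 in the others. Their part in the chemokine results was not tested.

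The word replacement in the titles divided several groups, with 3 of 8 arrays of 80 µg, 3 of 5 of crocidolite and 4 of 8 of DM at 1 month. With the word as a covariate the counts with 80 µg were 8, 8 and 1 at 1, 6 and 12 months, and with crocidolite 9, 7 and 8, the same as without it. Among arrays that hold the word 5 of the 10 were called with 80 µg at 1 month (0.667% of all genes in either direction) and 6 with crocidolite (1.18%), and among arrays without it 3 (0.325%) and 5 (1.75%). At 12 months it was 0 and 3 with the word (0.0225% and 1.3% of all genes) and 1 and 3 without it (0.933% and 2.83%). No direction of a called gene was turned in either set. At 6 months too few arrays hold the word, and those without it gave 3 with 80 µg (0.243%) and 7 with crocidolite (3.93%).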

How the data were processed

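Total RNA of mouse lung tissue was hybridised to 139 Affymetrix arrays after whole-transcript biotin labelling, per the labels' protocols. The authors deposited log2 values, from -0.05 to 13.28 with array medians between 4.01 and 4.34, and the submitters' processing notes name RMA, oligo and limma, with versions and genome build not given in the sources used here. Of 41345 features 23521 were paired with a single symbol, and the feature of highest mean was kept for each of 22180 genes. Every one of the 10 chemokines had a single feature.

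limma 3.58.1 (R 4.3.3) fitted a mean per group to the deposited values with the 2 arrays of a mouse averaged, on 120 residual degrees of freedom, with eBayes and Benjamini-Hochberg adjustment over all genes in each of 25 contrasts. Tests were two-sided with a threshold of 0.05. The model was tested on simulated data. Permutation tests were run in scipy 1.17.1. The number of mice per group limits the precision. The 10 chemokines, the other CC chemokines and receptors and the marker lists (lung, macrophages, monocytes, eosinophils, dendritic cells, neutrophils, T cells, skeletal and heart muscle, squamous epithelium, lymphoid tissue, fat) were chosen with earlier results of these data known. Named are all 10, others past the test, and the 3 genes most correlated with each chemokine, predicted genes and olfactory receptors left out. Promoter sequences and gene order came from RefSeq (GRCm38.p6). Alternatives were other normalizations, array weights, trended and robust moderation, a filter on dim genes, the word replacement in titles, arrays left out and the compared groups alone.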

Additional observations from a re-analysis of the deposited data

Results flagged for a closer look

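In 12 of the 180 combinations of a chemokine and a group, 1 mouse stood apart from the rest of its group by its gap to the nearest mouse, where chance gives about 1 in 20, or 9. In 4 of these the mouse was replicate 7 of 1 µg at 6 months, which was highest in Ccl3 (6.68, next 5.54), Ccl9 (8.27, next 7.38), Ccl11 (7.63, next 6.64) and Ccl22 (6.04, next 5.24). Replicate 8 of 40 µg at 6 months was highest in Ccl8 (6.39, next 4.97) and Ccl17 (8.79, next 7.54). At 12 months replicate 4 of 1 µg was highest in Ccl3 (6.07, next 5.29), replicate 2 of 1 µg in Ccl22 (5.38, next 4.52) and replicate 8 of 80 µg in Ccl22 (6.94, next 5.70). Replicate 2 of 40 µg at 12 months was lowest in Ccl3 (4.96, next 5.93). At 1 month replicate 5 of crocidolite was highest in Ccl4 (5.79, next 4.54) and replicate 3 of 1 µg lowest in Ccl6 (7.30, next 7.78).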

How the results depend on the processing

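No paired analysis was possible because the labels give no replicate numbers shared between groups, and those used here follow the order of deposition. The planned correlation threshold of 0.93 left out no array, so 0.96, the arrays that hold the word replacement, and leaving out single arrays in the other 80 µg and crocidolite comparisons were added after the data were seen. Called chemokines are counted below. The share of all genes called also differed between settings, as given above for the subsets by the word with 80 µg and with crocidolite. These counts alone therefore do not separate a change in the chemokines from a change in calls over all genes. With 80 µg against crocidolite at 12 months the count was 2, and it was 1 with array weights and with quantile normalization, 0 among arrays with the word replacement and 0 among those without it. The dose trend at 12 months fell to 1 with the word and 3 without it, against 5. Crocidolite against DM gave 5 without the word at 1 month, against 9, and at 12 months 3 with it and 3 without it, against 8. For 40 µg it was 2 without the word at 1 month, against 7, and at 6 months 0 without it and 2 with the compared groups alone, against 4. For 80 µg at 1 month it was 5 with the word and 3 without it, against 8. At 6 months it was 3 without the word and 0 with the compared groups alone, against 8. At 12 months it was 2 with array weights, 2 without genes of mean under 4, 2 with median centring and 0 with the word, against 1. The subsets by the word hold fewer mice of the compared groups. The fits of the compared groups alone keep every mouse of both groups and take the spread from those groups. With such fits Ccl3 with 80 µg was not called at 6 months (limma adjusted p = 0.166) and was called at 12 months (limma adjusted p = 0.0326). The cause of the changed counts was not tested for any setting. Leaving out a mouse gave 7 to 9 with crocidolite at 1 month, 5 to 7 at 6 months and 8 at 12 months, and 7 to 8 with 80 µg at 1 month, 4 to 9 at 6 months and 0 to 2 at 12 months. No difference that was called changed sign under any alternative run. The number of mice per group limits what could be called.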
